A study of Rattus norvegicus with 10 samples.

Results

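The miRNAs of the imprinted Dlk1-Dio3 locus were followed across the 10 small RNA libraries of the study. Members were chosen by name with earlier results of these data known, as the rat miRNAs with 1 of 42 numbers of the locus. Of these numbers 41 occur in the files, and they gave 84 mature miRNAs from 45 hairpin names, out of 723 mature miRNAs listed. The libraries come from female Wistar rats, whose age is not given in the sources used here, and all rats carried collagen-induced arthritis (CIA), raised with bovine type II collagen in Freund's adjuvant. There were 5 groups of 2 libraries. CIA_B was sampled before any therapy, MS_E and MS_A at 1 h and 34 days of mechanical stimulation (MS) with a short needle twirled in the skin of the lower back and the leg, and PLA_E and PLA_A at 1 h and 34 days of placebo (PLA), an injection of saline into the peritoneum. By the paper, stimulation was repeated every other day and saline was injected weekly. Rats of both arms were shaved and given ether at blood sampling. The labels give the stimulated arm the abbreviation AP, of acupuncture, and no group without arthritis is among these libraries. The tissue was excised around the stimulated points at sacrifice, so each time holds other rats, and the sources used here do not say whether a library is 1 rat or a pool. The p-values below therefore measure the spread between these libraries, which may be technical.

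The labels call the tissue muscle below the epidermis, while the methods speak of subcutaneous tissue that holds muscle and the design text of blood. The 6 skeletal muscle miRNAs taken as markers were all detected, and together they reached 83950 to 268617 counts per 1000000 reads (CPM) by library. The 4 leukocyte miRNAs summed to 585 to 1788 CPM in 9 libraries and to 12753 CPM in PLA_A replicate 1, and the 2 of 3 erythroid names found in the files summed to 14.7 to 84.4 CPM. Each group holds 1 library with 80399.7 to 122962 CPM of miR-1-3p, the main miRNA of striated muscle, and 1 with 10115 to 15564 CPM. The libraries with more were CIA_B replicate 1, MS_E replicate 2, PLA_E replicate 1, MS_A replicate 2 and PLA_A replicate 1. This split runs across all 5 groups, and values of members that move with it are given library by library. Reads on miRNAs amounted to 1513799 in the smallest library, CIA_B replicate 1, and to 3050255 to 8926170 in the others. CPM are scaled by the TMM factors of edgeR, and 3 reads, taken as the detection floor, equal 2.60 CPM in the smallest library and 0.366 to 0.828 CPM in the other 9. As bulk tissue was sequenced, fewer cells of a type and less RNA per cell cannot be told apart.

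The Dlk1-Dio3 region is one of the large imprinted domains of mammals. The protein genes Dlk1, Rtl1 and Dio3 are read from the paternal chromosome, and the noncoding RNAs Meg3, antisense Rtl1, Rian and Mirg from the maternal one. The miRNAs are cut from these noncoding RNAs, which are thought to be made as long joined transcripts, so that many hairpins share a precursor. Their levels are high in the embryo, the placenta and the brain, and in muscle they are known to decline after birth and to be raised again by the factor MEF2A during regeneration. In the callipyge sheep a mutation in this region causes overgrowth of muscle. The miRNAs antisense to Rtl1 pair perfectly with the Rtl1 message and can cleave it.

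RefSeq (build GRCr8) holds 82 of the 84 members, all of them on chromosome 6 between positions 134298094 and 134579828, a span of 281.7 kb. Of them 79 are read from the plus strand and 3, miR-299b-3p, miR-299b-5p and miR-409b, from the minus strand. miR-127-5p and miR-136-5p were matched to no entry. The mature sequences of the members that the results turn on are given 5′ to 3′, with the seed, bases 2 to 8, in capitals, because the seed sets which messages a miRNA recognizes. The first 6 are members of the highest level.
miR-127-3p: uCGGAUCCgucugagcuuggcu
miR-434-3p: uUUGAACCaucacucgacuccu
miR-411-5p: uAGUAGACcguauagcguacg
miR-541-5p: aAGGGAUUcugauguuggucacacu
miR-136-3p: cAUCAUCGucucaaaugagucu
miR-410-3p: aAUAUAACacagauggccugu
Of these, miR-127-3p (chr6:134328510-134328531), miR-434-3p (chr6:134330451-134330472) and miR-136-3p (chr6:134331383-134331404) lie antisense to Rtl1, and the other 3 lie in the Mirg cluster.

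The next 3 are shown because miR-381-3p (chr6:134562422-134562439) and miR-539-3p (chr6:134563646-134563667), from 2 hairpins of the Mirg cluster, carry 1 seed and are the members with the most calls against CIA_B. miR-300-3p (chr6:134559968-134559989) is their close relative with another seed, and it is identical to miR-381-3p at 17 bases and to miR-539-3p at 16.
miR-381-3p: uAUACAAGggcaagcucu
miR-539-3p: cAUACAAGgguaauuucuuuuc
miR-300-3p: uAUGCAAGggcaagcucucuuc
No other pair shares a seed among the 52 tested members with a RefSeq sequence. The 2 arms of the miR-299a hairpin, miR-495 and miR-376c-3p are shown as members that passed the thresholds between times or therapies.
miR-299a-5p: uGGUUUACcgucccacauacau
miR-299a-3p: uAUGUGGGacgguaaaccgcu
miR-495: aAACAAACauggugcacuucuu
miR-376c-3p: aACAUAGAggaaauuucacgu
miR-299a-5p (chr6:134545075-134545096) and miR-299a-3p (chr6:134545107-134545127) come from 1 hairpin of the Mirg cluster, and miR-495 (chr6:134554103-134554124) and miR-376c-3p (chr6:134558256-134558276) from others of it.

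The members took 0.179% to 0.744% of the miRNA reads of a library, and 58 to 74 of the 84 had at least 1 read in it. Of the 84, 54 reached 1 CPM in 5 or more libraries, the filter used, with CPM here over the library total and before any TMM factor, and were tested, within 359 miRNAs tested in all. The filter keeps members that are high in some groups, so counts over the 54 describe those members and not the 84. The 30 members left out never exceeded 2.80 CPM or 23 reads in a library, and 3 of them, miR-409b, miR-410-5p and miR-496-5p, had no read in any library. Of the tested members 6 had a mean above 100 CPM, 14 lay between 10 and 100 CPM and 34 were lower, and their median of 6.50 CPM stood below the 18.6 CPM of all 359. Reads of this kind cover whole mature miRNAs, so levels of members were compared per read without a length term.

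The antisense Rtl1 hairpins, within 4.9 kb, supplied 64.3% to 75.6% of the cluster's reads in every library. miR-127-3p was the first member in each of the 10 libraries, with 32.9% to 61.4% of the cluster's reads, and by its mean it had rank 33 among all miRNAs. It measured 2542 and 2408 CPM for CIA_B, 3578 and 2257 for MS_E, 1166 and 2948 for PLA_E, 1523 and 1451 for MS_A and 737 and 1406 for PLA_A. All 4 libraries at 34 days were below both CIA_B libraries, and PLA_E replicate 1 was as low as they were. miR-434-3p followed with 932 and 629 CPM for CIA_B, 469.9 and 1339.8 for MS_E, 454 and 577 for PLA_E, 202 and 661 for MS_A and 505 and 241 for PLA_A, where the 2 libraries of MS_E and of MS_A lay far apart. It was higher in the library with more miR-1-3p in 4 of the 5 groups and lower in PLA_E. miR-136 gave 2 arms of similar level, with means of 152 CPM for miR-136-3p and 127.5 CPM for miR-136-5p. miR-431, known from muscle satellite cells, had a mean of 13.0 CPM and lay between 5.98 and 18.5 CPM. miR-433-3p had the lowest mean of the tested members of this place, 2.87 CPM.

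The Mirg cluster packs 63 members into 36.4 kb and supplied 23.1% to 33.8% of the cluster's reads, with 38 members tested. Its first member was miR-411-5p with 767 and 660.2 CPM for CIA_B, 583 and 798 for MS_E, 485 and 731 for PLA_E, 415 and 604 for MS_A and 309 and 506 for PLA_A, and PLA_A replicate 1 was the lowest library. miR-541-5p had a mean of 178 CPM and miR-410-3p, the last of the members along the locus, one of 83.8 CPM. miR-379-5p, from the first hairpin of this cluster, had 43.6 CPM and miR-300-3p 30.0 CPM. Further named members of high level were miR-382-5p with 18.4 CPM and miR-369-3p with 17.2 CPM. The other places gave few reads. The hairpins on the Meg3 side, miR-770, miR-493, miR-337, miR-540 and miR-665, supplied 0.724% to 1.10% of the cluster's reads with 6 of 9 members tested, and those near Rian, miR-341 and miR-370, 0.386% to 1.10% with 2 of 3 tested. miR-341, a miRNA of rodents, had 28.0 CPM.

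**Figure D1:**
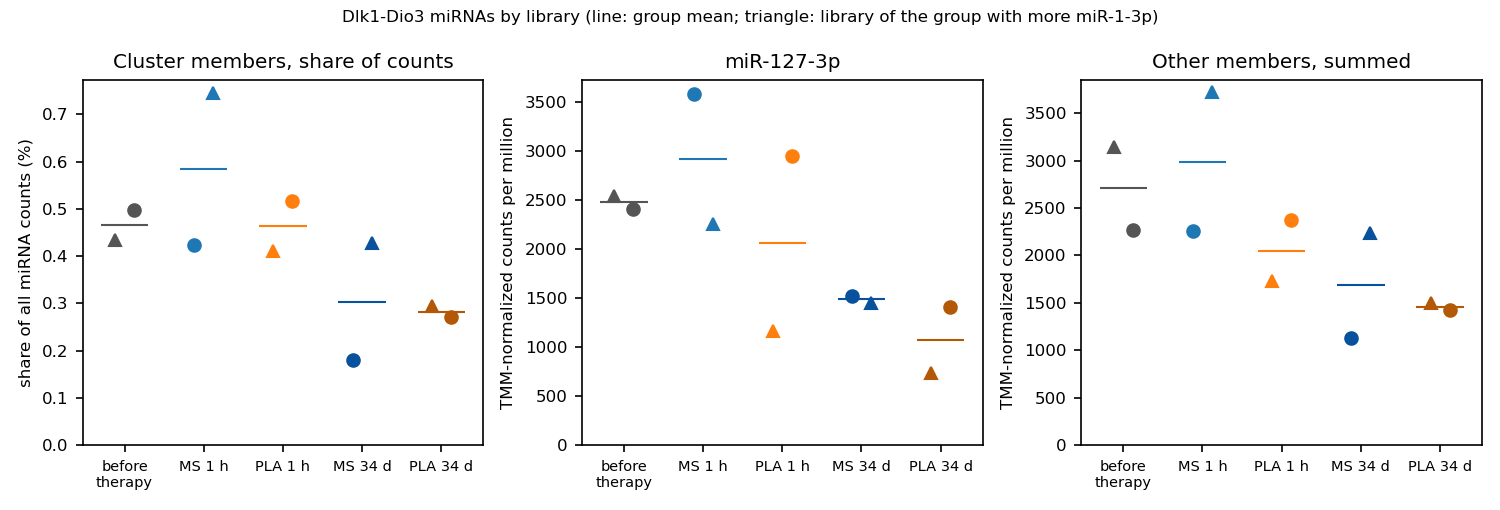
Levels of the cluster in the 10 libraries by group, as the share of all miRNA reads (left, %), miR-127-3p (middle, TMM-normalized CPM) and the sum of the other members (right, TMM-normalized CPM). Points are libraries, lines are means of 2 libraries and triangles mark the library of each group with more miR-1-3p; the 34 day groups have the lowest means in all 3 panels.

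The comparison of the 4 libraries at 34 days with the 4 at 1 h asks how the cluster differs between the times under both therapies. No group without therapy was sampled at 34 days among these libraries. Time under therapy, age and course of arthritis therefore cannot be told apart. All 54 tested members had lower fitted levels at 34 days, against 44.6% of all 359 miRNAs tested, with a median log2 fold change of -0.75 beside 0.06 over all. The median was -0.62 on the Meg3 side (6 tested), -0.80 antisense to Rtl1 (8 tested), -0.79 near Rian (2 tested) and -0.77 in the Mirg cluster (38 tested). The members share libraries and precursors, so the 54 directions are not independent. A miRNA is named called here where its unadjusted p lay under 0.05 and its level differed by over 2-fold, the criteria of the authors. By them 8 of the 54 members were called, all lower, where 4.46% of all tested miRNAs were called lower and 5.29% in either direction. Of the 8, miR-409a-5p and miR-485-3p passed the filter with only 1 library of 34 days, so their calls carry no weight as support. No member had an adjusted p under 0.05 when the quasi-likelihood p-values of edgeR were adjusted by Benjamini-Hochberg over 359 miRNAs, and the smallest was 0.681. A further 3 members had p under 0.05 with a change of less than 2-fold.

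Summed over all 84 members, the cluster measured 5685 and 4679 CPM for CIA_B, 5832 and 5979 for MS_E, 2899 and 5319 for PLA_E, 2655 and 3690.0 for MS_A and 2236 and 2826 for PLA_A. The libraries at 34 days lay between 2236 and 3690 CPM and those at 1 h between 2899 and 5979 CPM, so that PLA_E replicate 1 fell among the later ones. Without miR-127-3p the sums at 34 days were 1132 to 2239 CPM and at 1 h 1732 to 3722 CPM. As a share of all reads, without any scaling factor, the values at 34 days were 0.179%, 0.428%, 0.294% and 0.271%, and at 1 h 0.423%, 0.744%, 0.410% and 0.518%. The 30 members that were not tested summed to 6.62 to 12.6 CPM at 1 h and to 4.56 to 10.7 CPM at 34 days, which overlap. With library size alone in place of the TMM factors all 54 tested members were again lower and the median was -0.81, while by limma-voom 53 of the 54 were lower.

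Of the 8 called members 7 belong to the Mirg cluster and 1, miR-493-5p, to the Meg3 side. miR-299a-5p measured 11.2 and 6.62 CPM for CIA_B, 14.0 and 13.9 for MS_E, 5.76 and 10.8 for PLA_E, 3.56 and 5.73 for MS_A and 3.74 and 3.46 for PLA_A. All 4 libraries at 34 days were below all 4 at 1 h, though MS_A replicate 2 at 5.73 CPM was next to PLA_E replicate 1 at 5.76 CPM, and it was the only call in any comparison that remained in all 17 alternatives tried for it, with a log2 fold change of -1.38 (SE 0.39, adjusted p = 0.681). The other arm of the hairpin, miR-299a-3p, changed by -1.06 (SE 0.44, adjusted p = 0.740), on 3 to 45 reads a library, and missed the thresholds without MS_E replicate 1, PLA_E replicate 2, either MS_A library or PLA_A replicate 1 (-0.88 to -1.19). miR-382-3p was the other member whose groups did not overlap, with 4.33 and 2.4997 CPM for CIA_B, 2.62 and 5.62 for MS_E, 2.41 and 2.21 for PLA_E, 0.949 and 1.71 for MS_A and 0.996 and 1.09 for PLA_A and a change of -1.35 (SE 0.48, adjusted p = 0.681), on 4 to 36 reads. Of all tested miRNAs 1.39% were higher and 0.557% lower in this way, and the latter were these 2 members. Its call was lost without MS_E replicate 2 (-1.02) or MS_A replicate 1 (-1.18).

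miR-410-3p had the most reads of the 8, and measured 138 and 119 CPM for CIA_B, 172 and 87.3 for MS_E, 34.3 and 129 for PLA_E, 42.5 and 52.4 for MS_A and 20.4 and 41.9 for PLA_A. It fell by 1.42 on the log2 scale (SE 0.48, adjusted p = 0.681), while PLA_E replicate 1 lay below 3 of the 4 later libraries. The call was lost without MS_E replicate 1 (-1.09), PLA_E replicate 2 (-0.82), MS_A replicate 1 (-1.33) or PLA_A replicate 1 (-1.24). miR-493-5p behaved alike by library, with 11.2 and 12.1 CPM for CIA_B, 17.1 and 11.7 for MS_E, 4.42 and 16.3 for PLA_E, 4.03 and 5.73 for MS_A and 2.49 and 6.74 for PLA_A and a change of -1.34 (SE 0.51, adjusted p = 0.681), and lost its call without the same 4 libraries (-0.76 to -1.21). miR-495 changed by -1.14 (SE 0.41, adjusted p = 0.681) on 5 to 36 reads at these times, and lost the call without MS_A replicate 2 (-1.15).

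The remaining 2 calls rest on few reads. miR-409a-5p had 6 and 16 reads for CIA_B, 22 and 11 for MS_E, 3 and 14 for PLA_E, 2 and 14 for MS_A and 1 and 0 for PLA_A, and a fitted change of -2.53 (SE 0.95, adjusted p = 0.681). As both PLA_A libraries were under the floor of 3 reads, the size of the fitted change depends on the prior count of the fit, and with PLA_A set at its floor it was -1.47. It reached 1 CPM before scaling in 6 libraries, which are both of CIA_B, 3 of 1 h and MS_A replicate 2, so that a lower level at 34 days is in part a condition of its being tested, and its call carries no weight as support. Its call was lost without MS_E replicate 1 (-2.20), PLA_E replicate 2 (-1.45), MS_A replicate 1 (-2.26) or PLA_A replicate 2 (-2.06). miR-485-3p had 0 and 2 reads for CIA_B, 9 and 16 for MS_E, 7 and 6 for PLA_E, 0 and 11 for MS_A and 0 and 1 for PLA_A, with a fitted change of -2.33 (SE 0.94, adjusted p = 0.681), which was -1.27 with PLA_A at its floor. It passed the filter through the 4 libraries at 1 h and MS_A replicate 2 alone, and the same holds for its call. The other 12 members called in any comparison reached 1 CPM before scaling in 9 or 10 libraries. The call was also lost without PLA_A replicate 1. MS_A replicate 2 held 11 of the 12 reads at 34 days. In 5 of the 8 fits that leave out 1 library it did not pass the filter.

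Among the most abundant members, miR-127-3p had a log2 fold change of -0.96 (SE 0.38), miR-434-5p one of -0.89 (SE 0.35) and miR-300-3p one of -0.98 (SE 0.42), each with an unadjusted p under 0.05, less than 2-fold and with adjusted p of 0.681 to 0.740. miR-434-3p (-0.77), miR-411-5p (-0.51), miR-541-5p (-0.73), miR-136-3p (-0.57), miR-379-5p (-0.94), miR-341 (-0.72), miR-381-3p (-0.76), miR-382-5p (-1.11) and miR-369-3p (-0.87) had log2 fold changes below 0 without passing p under 0.05. The smallest differences among the abundant members were those of miR-136-5p (-0.15) and miR-411-3p (-0.41), and both turned positive without MS_E replicate 2 (0.29 and 0.76).

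Each fit without 1 library leaves a group of 1 library, so the spread then comes from the other groups alone. The number of members called at 34 days against 1 h changed between these fits. It was 3 without MS_E replicate 1, PLA_E replicate 2 or MS_A replicate 1, where 1.42%, 2.54% and 1.97% of all tested miRNAs were called lower, and 5 without PLA_A replicate 1, against 3.69%. It was 12 without PLA_E replicate 1, against 4.58%, 14 without MS_A replicate 2, against 5.41%, and 15 without PLA_A replicate 2, against 5.95%. With the term for the library split it was 12, against 4.74%. The median remained negative in all these fits, from -0.59 to -1.07, and at the least 44 of 51 members were lower, without MS_E replicate 2. Beside the cluster, the summed skeletal muscle miRNAs were at 83950 to 214610 CPM at 1 h and at 140085 to 268617 CPM at 34 days, the endothelial ones at 4274 to 12148 and 11360 to 14717 CPM, the leukocyte ones at 587 to 1782 and 805 to 12753 CPM, and the fibroblast ones at 1418 to 2701 and 1636 to 2928 CPM. The smooth muscle miRNAs were at 26942 to 101413 CPM at 1 h and at 36094 to 81513 CPM at 34 days. The epithelial ones were at 57.4 to 434.2 and 78.6 to 135 CPM, the erythroid ones at 15.2 to 84.4 and 35.1 to 55.6 CPM and the neuronal ones at 6.56 to 22.5 and 6.46 to 15.9 CPM. None of the detected markers was at 0 in every library, and the part of these values in the result was not tested.

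**Figure D2:**
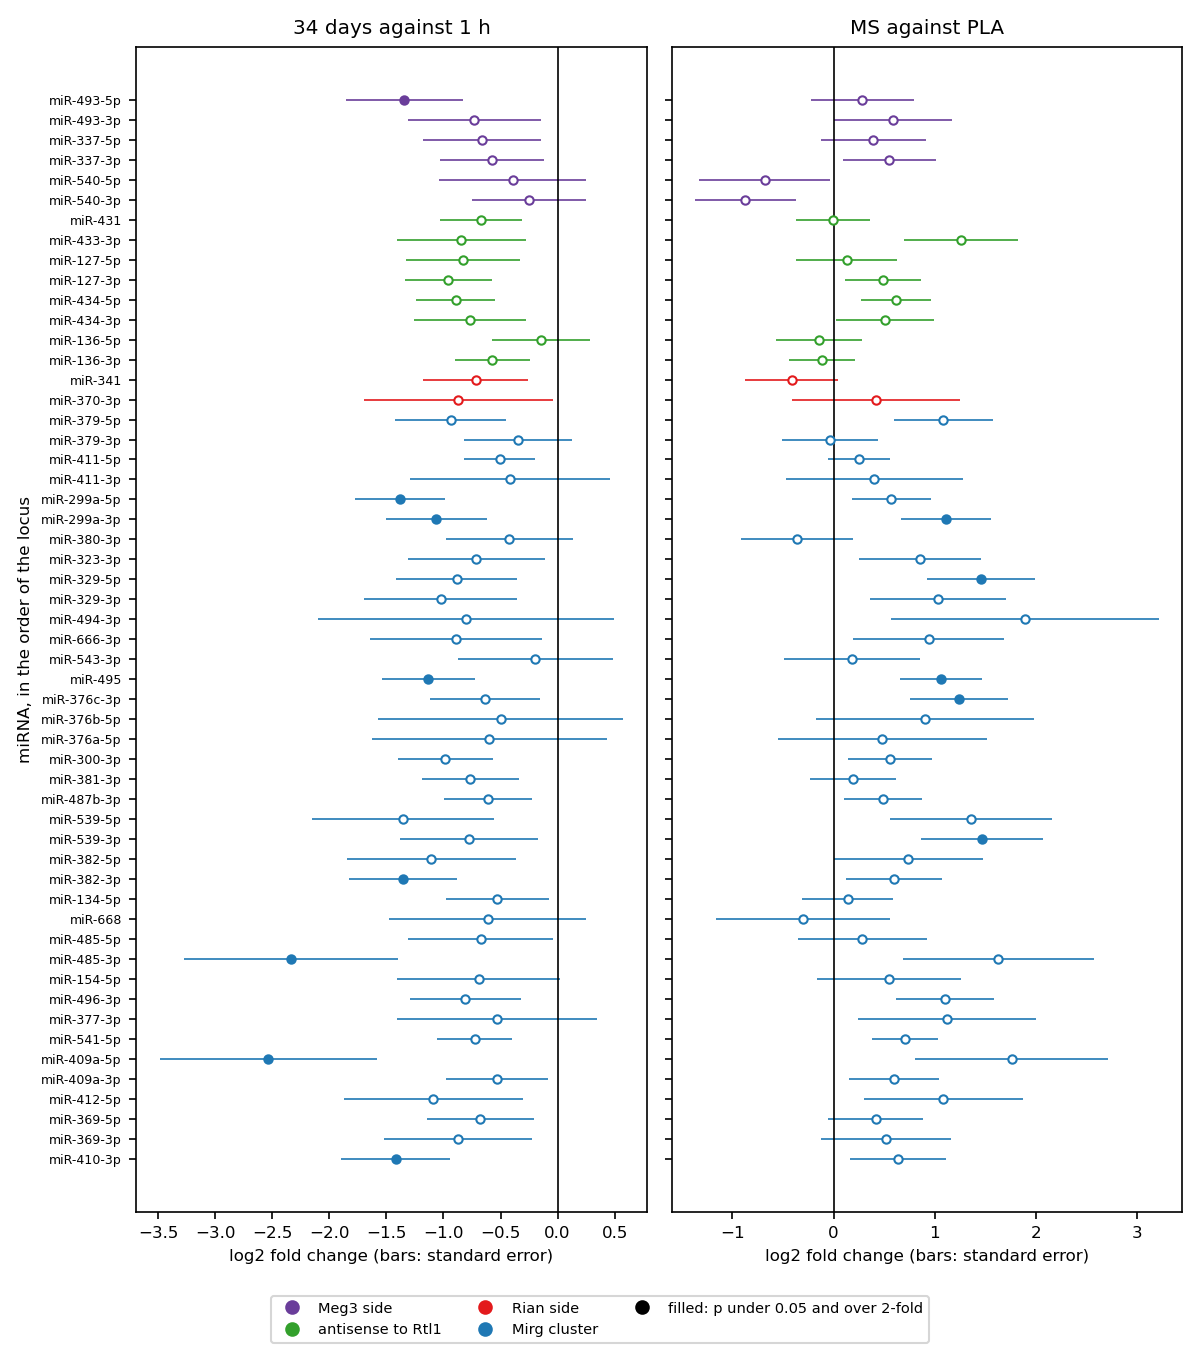
Log2 fold changes of the 54 tested members in the order of the locus, for the 34 day groups against the 1 h groups (left) and the MS groups against the PLA groups (right), each point with its standard error, colored by place in the locus and filled where p was under 0.05 and the change over 2-fold. All 54 points lie left of 0 in the first panel, and 45 lie right of 0 in the second.

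The 4 groups after therapy were each set against CIA_B. These comparisons share the 2 CIA_B libraries, so their values stand side by side and are not independent of each other. In MS_A and PLA_A, therapy, age and course of arthritis cannot be told apart here either. The tested members had a median log2 fold change of 0.30 in MS_E (38 higher, 16 lower), -0.35 in PLA_E (16 higher, 38 lower), -0.73 in MS_A (11 higher, 43 lower) and -1.03 in PLA_A (6 higher, 48 lower), where the medians of all 359 miRNAs were 0.06, 0.07, 0.11 and 0.12. Of all 359 miRNAs 44.8% were lower in MS_E, 44.8% in PLA_E, 40.9% in MS_A and 44.6% in PLA_A. The 54 members gave 1 call in MS_E, higher, where 6.41% of all miRNAs were called. They gave 1 in PLA_E, lower, against 0.557%, and 1 in MS_A, lower, against 1.11%. In PLA_A they gave 7 calls, all lower, against 7.24% in either direction, 5.01% higher and 2.23% lower. Thus 7 of the 8 miRNAs called lower in PLA_A were members. Of these, miR-409a-5p passed the filter through both CIA_B libraries and no PLA_A library, so its call is no support. No adjusted p of a member was under 0.05, and the smallest was 0.543, in PLA_A. By library, the median tested member stood at 8.22 and 4.93 CPM for CIA_B, 6.41 and 11.3 for MS_E and 4.42 and 4.69 for PLA_E. It stood at 2.85 and 6.22 CPM for MS_A and 4.23 and 3.37 for PLA_A. By this measure MS_E and MS_A overlapped with CIA_B, and both PLA_E and both PLA_A libraries lay below it. With library size alone in place of the TMM factors the median of all tested miRNAs moved by 0.17 in MS_E, 0.37 in PLA_E, -0.05 in MS_A and 0.30 in PLA_A. Relative to all miRNAs the members then stood at 0.27, -0.44, -0.65 and -1.13, beside 0.24, -0.42, -0.84 and -1.15 with TMM, although in PLA_E 27 were then higher and 27 lower before this correction.

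In PLA_A both libraries lay below both CIA_B libraries for 29 of the 54 members, where 15.6% of all tested miRNAs did so. In MS_A the same held for 21 members against 10.9%, in PLA_E for 11 against 9.47% and in MS_E for 4 against 13.1%. Both MS_E libraries lay above both CIA_B libraries for 13 members, against 18.4% of all. Below CIA_B, miR-409a-5p and miR-666-3p in PLA_A and miR-485-5p in MS_A reached 1 CPM before scaling in neither library of that group. miR-485-3p, above CIA_B in MS_E, reached it in no CIA_B library. As these members passed the filter through other groups, they carry no weight as support in these counts. The members called in PLA_A were miR-299a-3p, miR-409a-5p, miR-410-3p, miR-539-3p, miR-434-5p, miR-381-3p and miR-541-5p. The number was 2 without CIA_B replicate 1, where 1.13% of all tested miRNAs were called lower, and 2 without PLA_A replicate 1, against 1.42%. It was 3 with library size alone, against 0.836%, and 11 with the size factors of DESeq2, against 4.18%. With a term for the split of the libraries by miR-1-3p it was 16, while the share of all tested miRNAs called lower was 6.13% and that called in either direction 13.6%. The members called were all lower in each of these fits.

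Of the 8 marker lists, 3 lay above CIA_B in both PLA_A libraries and none below it in any later group. The leukocyte miRNAs summed to 12753 and 1154 CPM in PLA_A, 805 and 1788 CPM in MS_A and 1630 and 729 CPM in PLA_E, all above the 688 and 585 CPM of CIA_B. The epithelial ones were at 135 and 113 CPM in PLA_A, 120 and 78.6 CPM in MS_A and 434.2 and 117 CPM in MS_E, against 33.7 and 70.6 CPM. The erythroid ones were at 35.9 and 55.6 CPM in PLA_A, 35.1 and 51.3 CPM in MS_A and 84.4 and 21.2 CPM in MS_E, against 20.8 and 14.7 CPM. These lists thus moved with the comparisons of PLA_A and MS_A, in which most members were lower, and epithelial and erythroid miRNAs also with that of MS_E, in which most were higher. The lists of skeletal muscle, smooth muscle, endothelium, fibroblasts and neurons overlapped with CIA_B in all 4 groups, as did leukocytes in MS_E and the epithelial and erythroid lists in PLA_E. The part of these values in the calls was not tested.

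The members called in PLA_A came from both large places. miR-410-3p had a mean of 31.2 ± 15.2 CPM (SD, n = 2) beside 129 ± 13.8 CPM before therapy, a log2 fold change of -2.04 (SE 0.69, adjusted p = 0.543), which missed the thresholds without CIA_B replicate 1 (-1.99) or PLA_A replicate 1 (-1.60). miR-434-5p, antisense to Rtl1, measured 52.8 and 42.1 CPM for CIA_B, 56.0 and 52.0 for MS_E, 21.0 and 39.7 for PLA_E, 23.5 and 26.7 for MS_A and 13.9 and 23.9 for PLA_A, with a change of -1.32 (SE 0.50, adjusted p = 0.543) in PLA_A that missed them without the same 2 libraries (-1.21 and -0.96). Both PLA_A libraries and both MS_A libraries were lower than either CIA_B library. miR-541-5p measured 285 and 142 CPM for CIA_B, 222 and 299 for MS_E, 184 and 140.4 for PLA_E, 128 and 191 for MS_A and 91.9 and 101 for PLA_A, with a change of -1.14 (SE 0.47, adjusted p = 0.543). Its change was -0.64 without CIA_B replicate 1, -1.03 without PLA_A replicate 1 and -1.28 without PLA_A replicate 2, no longer called in each case.

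miR-299a-3p had the smallest p of the members in PLA_A, with 4.33 and 6.62 CPM for CIA_B, 6.64 and 4.53 for MS_E, 2.14 and 3.31 for PLA_E, 3.32 and 2.32 for MS_A and 0.747 and 1.64 for PLA_A, and a change of -2.19 (SE 0.66, adjusted p = 0.543). PLA_A replicate 1 held 3 of its reads and replicate 2 held 9, and the call was lost without CIA_B replicate 2 (-1.81) or PLA_A replicate 1 (-1.79). miR-409a-5p held 1 and 0 reads in PLA_A, at the floor, against 6 and 16 in CIA_B. Its mean of 3.77 CPM before therapy was at least 5.83-fold higher than the mean floor of the 2 PLA_A libraries, 0.647 CPM. Both CIA_B libraries are among the 6 through which it passed the filter and neither PLA_A library is, so this call is no support either. The adjusted p of this member was 0.543 by edgeR, and the call was lost without PLA_A replicate 2. With all 4 groups after therapy against CIA_B, the median of the members was -0.42 beside 0.04 over all miRNAs, 42 of 54 were lower and 3 were called, all lower, against 4.46% of all in either direction, 2.51% higher and 1.95% lower. Of all tested miRNAs 45.1% had a lower fitted level.

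The pair that shares the seed AUACAAG, miR-381-3p and miR-539-3p, supplied 2 of these 3 calls. miR-381-3p measured 41.5 and 34.7 CPM for CIA_B, 33.5 and 17.2 for MS_E, 8.58 and 24.3 for PLA_E, 11.9 and 10.1 for MS_A and 15.2 and 10.9 for PLA_A. All 8 libraries after therapy lay below both CIA_B libraries, as for 0.557% of all tested miRNAs, and it was the only member of this kind. The change against the mean of the 4 groups was -1.28 (SE 0.44, adjusted p = 0.932). It was called in MS_A, with -1.79 (SE 0.61, adjusted p = 0.994), and in PLA_A, with -1.54 (SE 0.61, adjusted p = 0.543), and had values of -0.59 in MS_E and -1.22 in PLA_E that were not called. Leaving out single libraries kept the log2 fold change between -1.14 and -1.51 over the 4 groups, between -1.75 and -1.92 in MS_A and between -1.42 and -1.78 in PLA_A, while calls were lost without either CIA_B library over the 4 groups, without either MS_A library in MS_A and without any 1 of the 4 libraries in PLA_A.

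miR-539-3p measured 9.52 and 2.06 CPM for CIA_B, 2.93 and 6.24 for MS_E, 0.804 and 1.66 for PLA_E, 1.90 and 1.95 for MS_A and 0.996 and 0.911 for PLA_A, on 4 to 40 reads a library. It was called in PLA_E with -2.11 (SE 0.88, adjusted p = 0.994), in PLA_A with -2.42 (SE 0.90, adjusted p = 0.543) and over the 4 groups with -1.53 (SE 0.65, adjusted p = 0.932). Its level before therapy rests on CIA_B replicate 1, which held 11 of its reads at 9.52 CPM, while replicate 2 held 14 at 2.06 CPM. Without CIA_B replicate 1 the changes were -0.87 in PLA_E, -1.18 in PLA_A and -0.29 over the 4 groups, and none was called. The PLA_E call was also lost without PLA_E replicate 1 (-1.63), the PLA_A call without either PLA_A library (-2.41 in both) and the call over the 4 groups without any single library except CIA_B replicate 2, MS_E replicate 2 or PLA_E replicate 2. Of this pair only miR-381-3p was below CIA_B in every later library. The related miR-300-3p was at 37.2 and 35.9 CPM for CIA_B, 45.4 and 46.7 for MS_E, 17.6 and 41.7 for PLA_E, 18.7 and 25.1 for MS_A and 8.97 and 22.6 for PLA_A, above CIA_B in both MS_E libraries and below it in both MS_A and both PLA_A libraries, with no call. The third call over the 4 groups was miR-299a-3p, with -1.07 (SE 0.47, adjusted p = 0.932), which was -0.69 without CIA_B replicate 2 and also lost without MS_E replicate 2, PLA_E replicate 1, either MS_A library or PLA_A replicate 1.

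**Figure D3:**
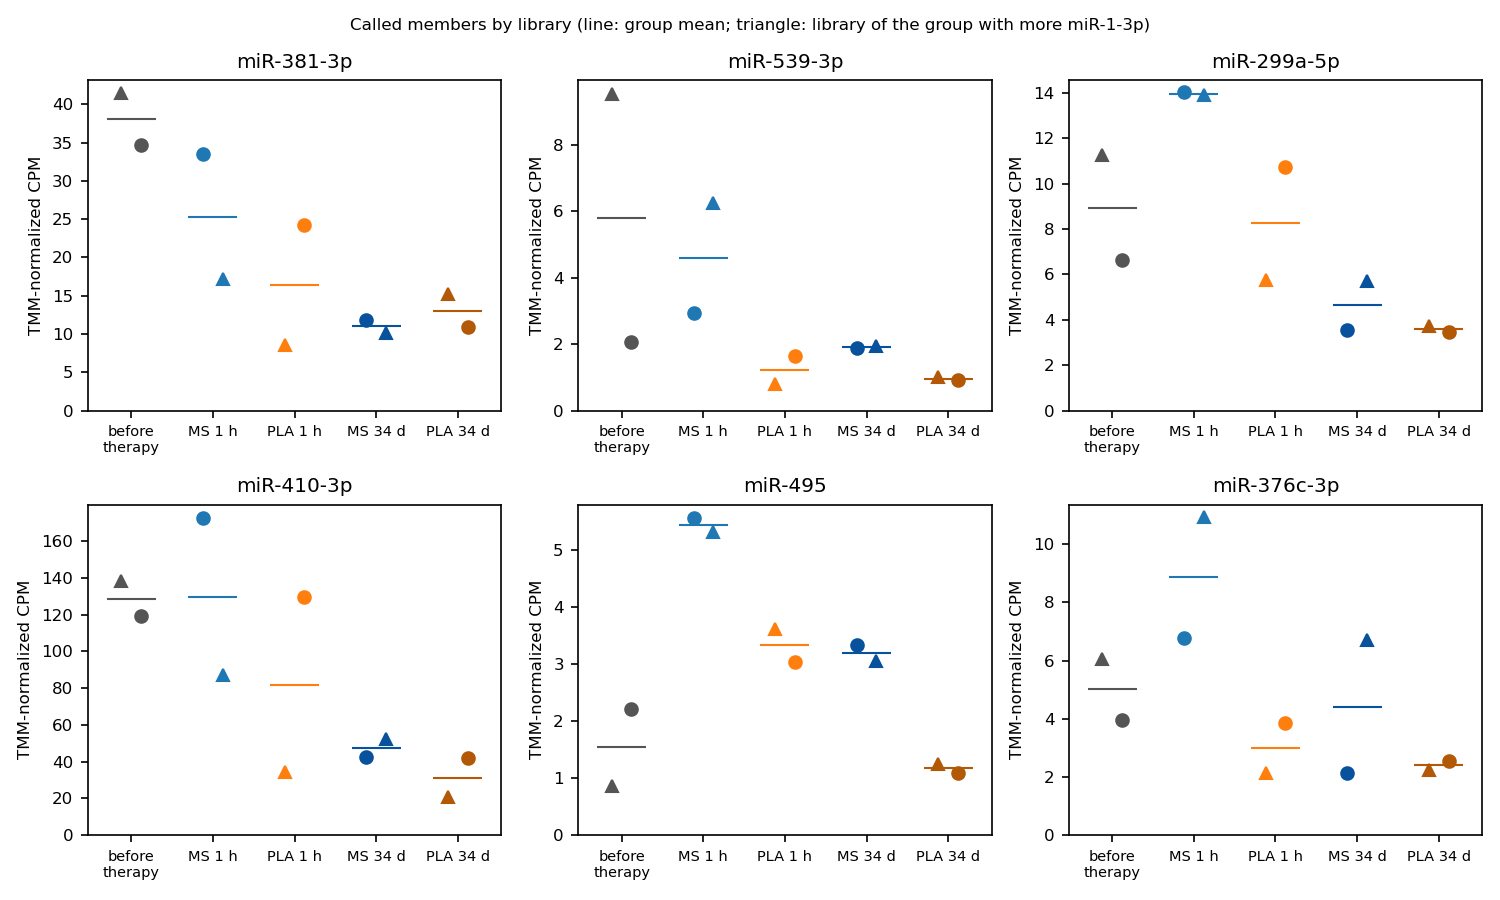
TMM-normalized CPM of 6 called members in each library by group, with lines at the means of 2 libraries and triangles for the library of each group with more miR-1-3p. miR-381-3p is at 33.5 CPM or less in all later libraries and at 34.7 CPM or more in CIA_B, the libraries of miR-299a-5p at 34 days lie below those at 1 h, and miR-495 is highest in MS_E.

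miR-495 was the member called in MS_E. It measured 0.865 and 2.21 CPM for CIA_B, 5.56 and 5.31 for MS_E, 3.62 and 3.03 for PLA_E, 3.32 and 3.05 for MS_A and 1.25 and 1.09 for PLA_A, on 1 and 15 reads for CIA_B, 36 and 34 for MS_E, 27 and 11 for PLA_E, 14 and 25 for MS_A and 5 and 6 for PLA_A. Both MS_E libraries were above all other 8, and the change against CIA_B was 1.62 (SE 0.60, adjusted p = 0.581). CIA_B replicate 1 held 1 read, below the floor, and without this library the change was 1.24 and not called, as it was not without either MS_E library (1.47 and 1.64), and without CIA_B replicate 2 it was 2.61. The call was also lost by DESeq2, with library size alone, without the filter and with only the libraries compared (1.52 to 1.64), and it was kept in 6 of 13 alternatives. Its levels in PLA_E and MS_A were also above both CIA_B libraries, with log2 fold changes of 0.92 and 0.85, and PLA_A was at -0.58.

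The comparison of MS with PLA asks whether the cluster differs between stimulation and placebo at the same time. At 1 h 46 of the 54 tested members were higher in MS_E than in PLA_E and 8 lower, with a median log2 fold change of 0.69 beside 0.03 over all miRNAs, and 2 were called, both higher, where 3.9% of all were called and 3.06% higher. Both MS_E libraries lay above both PLA_E libraries for 20 members, against 16.4% of all. At 34 days 43 were higher and 11 lower, with a median of 0.43 beside -0.02, and 1 was called, higher, against 1.95% of all, 0.279% higher and 1.67% lower. Both MS_A libraries lay above both PLA_A libraries for 8 members, against 7.52% of all. Among them miR-409a-5p reached 1 CPM before scaling in no PLA_A library. With both times together 45 were higher and 9 lower, the median was 0.55 beside -0.03, and 5 were called, all higher, where 3.9% of all were called and 2.23% higher. Of all tested miRNAs 47.9% were lower in MS at 1 h, 52.6% at 34 days and 52.6% with both times together. Here too the directions of the members are not independent. No adjusted p of a member was under 0.05, and the smallest of these comparisons was 0.832.

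With both times together 35 of the 38 tested members of the Mirg cluster were higher in MS and their median was 0.67, while 4 of 6 on the Meg3 side (median 0.34), 5 of 8 antisense to Rtl1 (median 0.31) and 1 of 2 near Rian (median 0.00) were. All 5 calls belong to the Mirg cluster. The lowest values were those of both arms of miR-540 on the Meg3 side, -0.87 for miR-540-3p and -0.68 for miR-540-5p, 2 members named here after their values were seen. The difference moved with single libraries, and the median with both times together was 0.21 without MS_A replicate 2 and 0.81 without PLA_E replicate 2. With library size alone in place of the TMM factors the median of all tested miRNAs moved by -0.28, and relative to all miRNAs the members stood at 0.65, beside 0.59 with TMM. Before this correction the median of the members was 0.34, 41 were higher and the 1 call was miR-540-3p, lower in MS (-1.21). At 34 days the median was -0.22 without MS_A replicate 2, with 18 higher and 34 lower. The number of calls with both times together was 1 without PLA_E replicate 1 or MS_A replicate 2, where 1.15% and 1.99% of all tested miRNAs were called higher, and 3 without MS_E replicate 2, against 4.57%. It was 8 with the size factors of DESeq2, against 2.79%, and 9 with the term for the library split, against 3.06%. The summed markers of the MS and the PLA libraries were at 83950 to 268617 and 134848 to 189888 CPM for skeletal muscle, at 587 to 1788 and 729 to 12753 CPM for leukocytes, at 4274 to 14717 and 9919 to 14569 CPM for endothelium and at 1418 to 2928 and 2436 to 2701 CPM for fibroblasts. For smooth muscle they were at 26942 to 77894 and 36094 to 101413 CPM, for epithelium at 78.6 to 434.2 and 57.4 to 135 CPM, for erythroid cells at 21.2 to 84.4 and 15.2 to 55.6 CPM and for neurons at 6.46 to 22.5 and 10.2 to 15.9 CPM. The ranges overlap in every list, and their part in the difference was not tested. In this study the placebo was injected away from the sampled tissue and on another schedule. The needle, the site and, by 34 days, the frequency of handling thus differ between the arms and cannot be told apart.

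The 5 members called with both times together were miR-329-5p, miR-495, miR-376c-3p, miR-299a-3p and miR-539-3p. miR-539-3p was the only member whose 4 MS libraries all lay above its 4 PLA libraries, as for 0.557% of all tested miRNAs, with a change of 1.47 (SE 0.60, adjusted p = 0.850). It was also called at 1 h, with 1.94 (SE 0.84, adjusted p = 0.832). Both calls were lost without MS_E replicate 2 (1.16 and 1.30) or PLA_E replicate 1 (1.24 and 1.46), and the first also without MS_A replicate 2 or either PLA_A library (1.41 to 1.53). miR-376c-3p, known to repress the receptor ALK7, measured 6.06 and 3.97 CPM for CIA_B, 6.79 and 10.9 for MS_E, 2.14 and 3.86 for PLA_E, 2.13 and 6.70 for MS_A and 2.24 and 2.55 for PLA_A. Both MS_E libraries were above both CIA_B libraries and both PLA_E libraries were below them. It was called at 1 h, with 1.58 (SE 0.68, adjusted p = 0.832), and with both times together, with 1.24 (SE 0.48, adjusted p = 0.850). The call at 1 h was lost without any 1 of the 4 libraries (1.19 to 2.02), and the other without MS_E replicate 2, PLA_E replicate 1, MS_A replicate 2 or PLA_A replicate 1 (0.66 to 1.23).

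miR-495 differed at 34 days, with 3.18 ± 0.194 CPM in MS_A against 1.17 ± 0.107 CPM in PLA_A (SD, n = 2), a change of 1.43 (SE 0.60, adjusted p = 0.999). The change stayed between 1.40 and 1.52 without each of the 4 libraries, and the call was lost in each case. With both times together it was 1.06 (SE 0.41, adjusted p = 0.850), lost without MS_E replicate 1, PLA_E replicate 2, either MS_A library or PLA_A replicate 2 (1.01 to 1.06). miR-329-5p was at 2.60 and 2.06 CPM for CIA_B, 3.3961 and 3.90 for MS_E, 1.07 and 1.93 for PLA_E, 2.85 and 1.58 for MS_A and 0.249 and 1.09 for PLA_A, on 1 to 25 reads a library, and changed by 1.46 (SE 0.53, adjusted p = 0.850). Its call was lost without PLA_E replicate 1, MS_A replicate 1 or PLA_A replicate 1 (1.18 to 1.26), and the change was 2.20 without PLA_A replicate 2. miR-299a-3p changed by 1.11 (SE 0.44, adjusted p = 0.850), lost without MS_E replicate 1, PLA_E replicate 1, either MS_A library or PLA_A replicate 1 (0.92 to 1.20).

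Whether the change from 1 h to 34 days differs between MS and PLA was fitted as an interaction. None of the 54 members was called, where 3.34% of all miRNAs were, and none had an unadjusted p under 0.05. The median of the members was -0.38 beside -0.09 over all. It was 0.22 without MS_E replicate 2, 0.04 without MS_A replicate 1 and -0.93 without MS_A replicate 2. In 4 of the 8 fits that leave out 1 library 1 member was called, in mixed directions. It was miR-409a-5p, positive, without PLA_E replicate 1, where 3.72% of all tested miRNAs were called, and miR-154-5p, positive, without PLA_A replicate 2, against 3.97%. It was miR-485-5p, negative, without PLA_E replicate 2, against 1.13%, and miR-136-5p, negative, without MS_A replicate 2, against 2.28%. The call of miR-154-5p rests on 0 reads in PLA_A replicate 1. That of miR-409a-5p rests on 1 and 0 reads in PLA_A, under the floor of 3 reads. With all libraries none was called by limma-voom or by DESeq2 either.

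**Figure D4:**
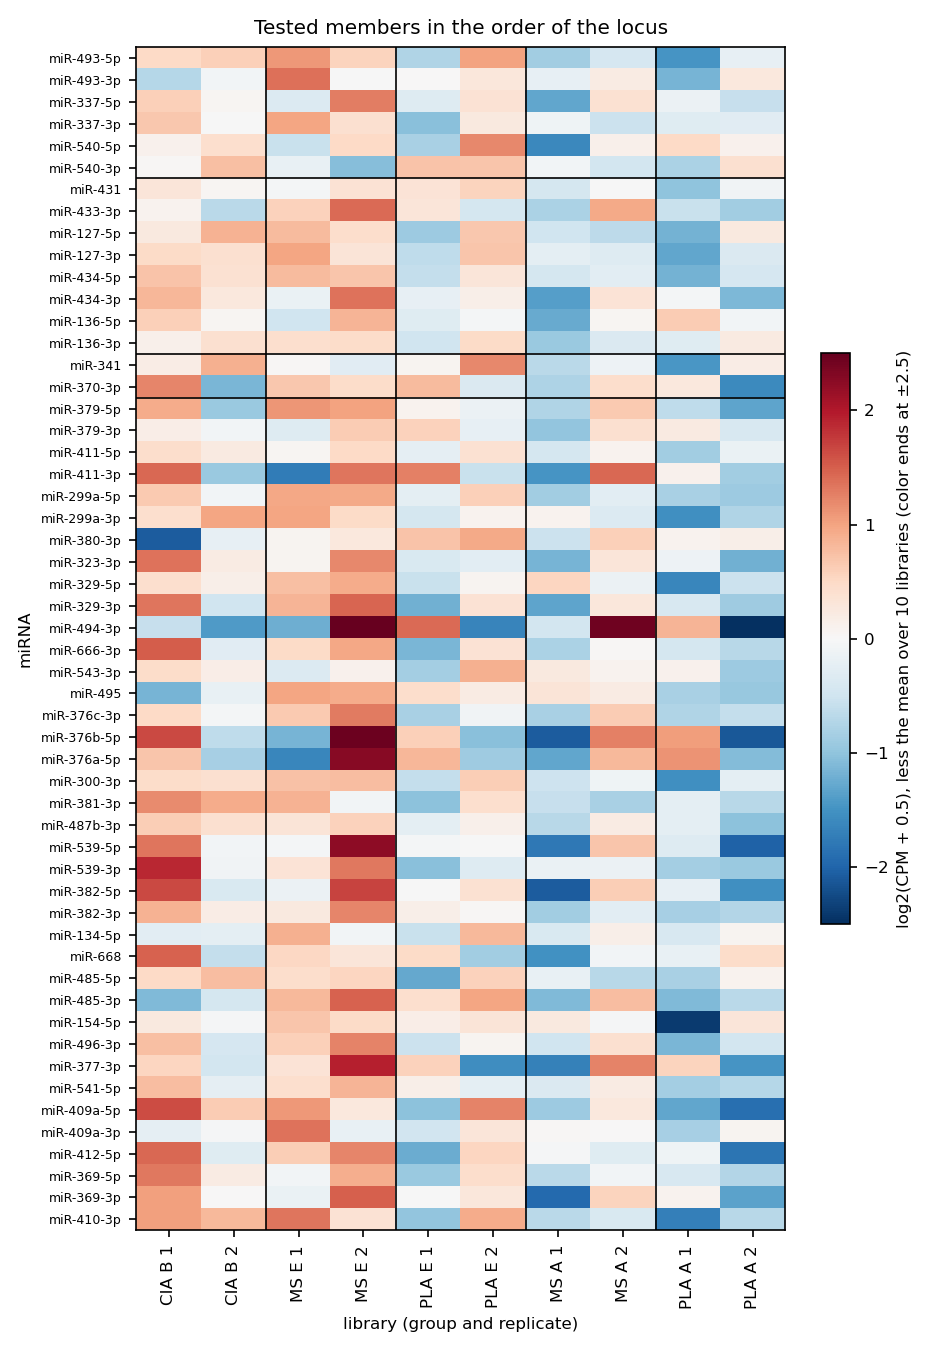
Levels of the 54 tested members (rows, in the order of the locus, lines between the 4 places) in the 10 libraries (columns, lines between groups), as log2(CPM + 0.5) less the mean of each member over the 10 libraries. For 29 members both PLA_A libraries are below both CIA_B libraries, as for 15.6% of all tested miRNAs, and 7 members (13.0%, beside 17.5% of all), miR-411-3p and miR-494-3p among them, are higher in the library with more miR-1-3p in every group.

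The split of the libraries by miR-1-3p separated a share of the members no larger than that of all tested miRNAs. Of the 54, 7 (13.0%) were higher in the library with more miR-1-3p in all 5 groups and 3 (5.56%) were lower in all 5, where 17.5% and 13.9% of all 359 miRNAs were. For 5 members (9.26%), miR-411-3p, miR-376b-5p, miR-376a-5p, miR-377-3p and miR-379-3p, all 5 libraries with more miR-1-3p lay above the other 5, as for 9.47% of all. miR-411-3p measured 81.3 and 15.3 CPM for CIA_B, 8.49 and 75.9 for MS_E, 71.7 and 20.1 for PLA_E, 10.4 and 80.8 for MS_A and 31.9 and 16.0 for PLA_A. It was at 31.9 to 81.3 CPM in the libraries with more miR-1-3p and at 8.49 to 20.1 CPM in the others. miR-376b-5p was at 31.2 and 6.03 CPM for CIA_B, 4.01 and 54.5 for MS_E, 14.7 and 4.41 for PLA_E, 1.90 and 23.5 for MS_A and 20.4 and 1.82 for PLA_A in the same alternation. miR-494-3p was at 1.73 and 0.735 CPM for CIA_B, 0.926 and 33.7 for MS_E, 8.31 and 0.552 for PLA_E, 1.90 and 17.4 for MS_A and 5.48 and 0 for PLA_A, higher in the library with more miR-1-3p in each group though not across groups. miR-411-3p and miR-379-3p are identical at 19 bases and miR-376b-5p and miR-376c-5p at 20, and the values of such pairs are uncertain where a read matches both. The part of the split in the comparisons between groups was fitted as a term of the model, and with it the medians of the members were -0.74 for 34 days against 1 h and 0.56 for MS against PLA.

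The arms of 1 hairpin are cut from the same precursor, and their ratio is free of the level of the locus and of scaling between libraries. The files list both arms of 39 hairpins, the 3p arm held more reads in 23 of them and the 5p arm in 16, and both arms were tested in 15. The hairpins of miR-411 (chr6:134544594-134544669) and miR-434 (chr6:134330402-134330482) are shown, with the 5p and then the 3p arm in capitals, because the shares of their arms differed between libraries, a choice made after the values were seen.
mir-411: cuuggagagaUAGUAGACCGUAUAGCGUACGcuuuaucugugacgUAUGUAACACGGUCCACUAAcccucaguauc
mir-434: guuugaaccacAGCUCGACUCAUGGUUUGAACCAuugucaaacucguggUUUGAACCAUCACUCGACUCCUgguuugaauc
The 5p arm dominated miR-411 and the 3p arm miR-434. In miR-136, whose 5p arm was matched to no RefSeq entry, both arms held a large share.

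The 3p arm of miR-411 held 9.59% (7.90 to 11.6) and 2.26% (1.87 to 2.74) of the hairpin's reads in the CIA_B libraries, with 95% Wilson intervals in parentheses that cover counting error only. It held 1.43% and 8.68% for MS_E, 12.9% and 2.68% for PLA_E, 2.46% and 11.8% for MS_A and 9.36% and 3.07% for PLA_A. The 5 libraries with more miR-1-3p lay at 8.68% to 12.9% and the other 5 at 1.43% to 3.07%, on 980 to 5616 reads. miR-136 went the other way, with the 3p arm at 47.0% and 61.2% for CIA_B, 69.9% and 48.2% for MS_E, 51.8% and 63.8% for PLA_E, 60.8% and 47.9% for MS_A and 38.8% and 60.1% for PLA_A. Here the libraries with more miR-1-3p were at 38.8% to 51.8% and the others at 60.1% to 69.9%. In miR-434 they were at 94.6% to 97.3% and 89.3% to 93.7%. In these 3 of the 15 hairpins with both arms tested (20%) the 2 sets of libraries did not overlap. Of all 101 hairpins in the files with both arms tested 22.8% were apart in this way, so that the hairpins of the locus did not stand out. The part of the miR-1-3p level in these shares was not tested.

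**Figure D5:**
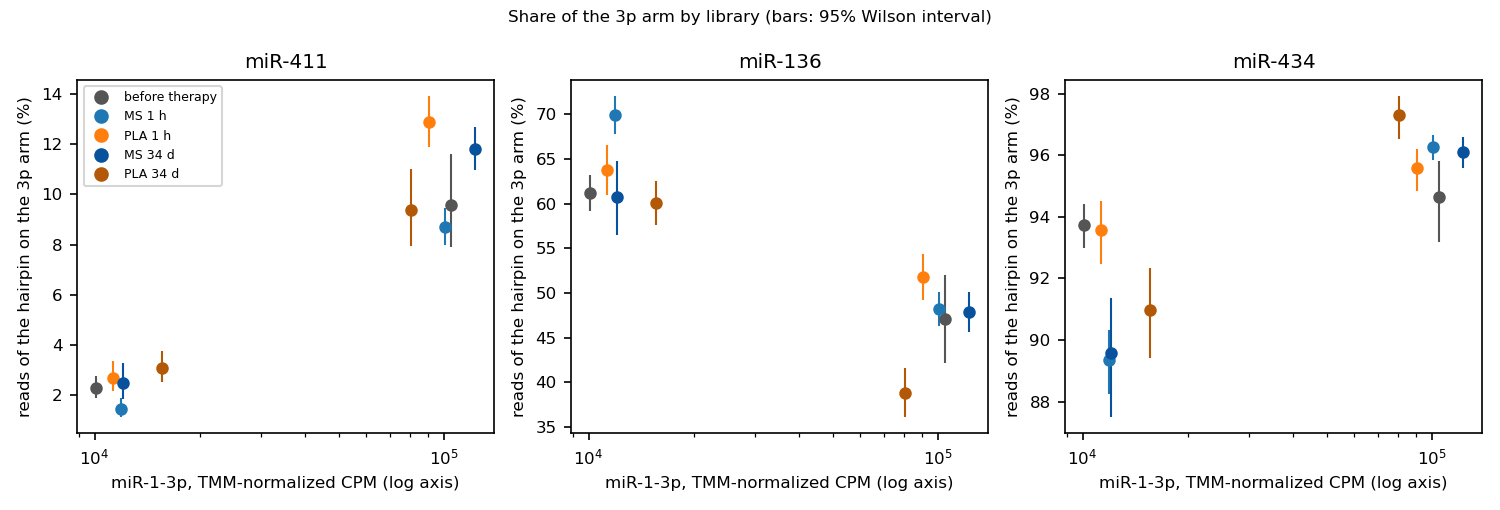
Share of a hairpin's reads on the 3p arm (vertical axis, %, not starting at 0) against the miR-1-3p level of the library (horizontal log axis, TMM-normalized CPM) for miR-411, miR-136 and miR-434, with 95% Wilson intervals and groups by color. The libraries form 2 sets apart in all 3 panels, with 1 library of each group in either set, as for 22.8% of all hairpins with both arms tested.

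The shares of other hairpins also varied between libraries, on fewer reads. The 3p arm of miR-379 held 5.63% (3.99% to 7.88%) of 551 reads in MS_E replicate 1 and 23.8% (16.7% to 32.8%) of 105 in PLA_A replicate 2. That of miR-369 held 28.6% (17.9% to 42.4%) of 49 reads in MS_A replicate 1 and 66.9% (59.2% to 73.8%) of 157 in PLA_E replicate 1, and that of miR-376b 1.41% to 28.6%, on 1 to 14 reads of this arm. The 3p arm of miR-127 had 99.3% to 99.7% of the reads in all 10 libraries, near the upper limit of a share. Further miRNAs of the locus lie outside the 42 numbers. RefSeq places 16 such mature miRNAs within the span of the members, and all 16 are named in the files. Of the list drawn up for this purpose 10 mature miRNAs were found in the files, 2 were tested, miR-673-3p and miR-1193-3p, and none was called in any of the 10 comparisons. miR-673-3p, which lies on the Meg3 side, had a log2 fold change of -0.95 (SE 0.57) at 34 days against 1 h and of -1.09 (SE 0.82) in PLA_A against CIA_B.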

How the data were processed

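Small RNA was sequenced from 10 tissue libraries (TruSeq small RNA kit, Illumina sequencing), and groups were taken from the labels. The authors called bases with CASAVA 1.8, trimmed adapters, discarded reads under 18 nt, and with miRDeep2 mapped reads by Bowtie to rn4 and counted them on rat miRBase 18. The deposited values are raw read counts per mature miRNA and precursor, and the largest count over precursors was used. A series table with 20 columns of values that match no label was not used.

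TMM factors (0.675 to 1.41) and quasi-likelihood fits came from edgeR 4.0.16 (R 4.3.3), with all 10 libraries in 1 model, over the 359 miRNAs that passed the filter. CPM are counts per 1000000 reads scaled by TMM, except in the filter, where they are not scaled. Adjusted p-values are by Benjamini-Hochberg over 359 miRNAs. A fold against a group at or under 3 counts a library is given as a bound or with the value at that floor, and it covers counting error only. The text names the 15 tested members of highest mean, all called members, partner arms and shared seeds. Members, marker lists and rules were chosen with earlier results of these data known. Alternatives were limma-voom (limma 3.58.1), DESeq2 1.42.0, its size factors in edgeR, library size alone, no filter, summed counts, only the libraries compared, a replicate block, a term for the library split by miR-1-3p and leaving out each library. The fit was also run on simulated counts, and no result above rests on that run. No library was taken for a duplicate, since chi-square over degrees of freedom within groups was 1586 to 7873. Sequences and positions are from RefSeq GRCr8, not from the build of the files, and figures were drawn with matplotlib 3.10.9.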

Additional observations from a re-analysis of the deposited data

Results flagged for a closer look

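In 4 members both libraries of 1 time lay above both CIA_B libraries and both libraries of the other time below them, under the same therapy. For miR-136-3p in MS the log2 fold change against CIA_B was 0.16 at 1 h and -0.90 at 34 days, a difference of -1.06. For miR-299a-5p in MS it was 0.68 at 1 h and -0.89 at 34 days, a difference of -1.57. For miR-300-3p in MS it was 0.33 at 1 h and -0.73 at 34 days, a difference of -1.07. For miR-431 in PLA it was 0.28 at 1 h and -0.68 at 34 days, a difference of -0.96. None of these values was called against CIA_B, both times share the CIA_B libraries, and the difference itself was not tested. Of all 359 miRNAs tested 7 lay on opposite sides in this way in MS, 3 of them members, and 3 in PLA, 1 of them a member.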

How the results depend on the processing

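No adjusted p of a member was under 0.05 in any alternative. The number of members called at 34 days against 1 h was 6 to 12 in the alternatives that keep all libraries, beside 8, and 3 to 15 when single libraries were left out. Leaving out single libraries gave 1 to 2 calls for MS_E against CIA_B, 0 to 5 for PLA_E, 0 to 5 for MS_A and 2 to 10 for PLA_A, 1 to 7 for the 4 groups after therapy, 0 to 5 for MS_E against PLA_E, 0 to 4 for MS_A against PLA_A, 1 to 7 for MS against PLA and 0 to 1 for the interaction. Over all alternatives the share of all tested miRNAs called was 1.7% to 7.93% at 34 days against 1 h, 4.49% to 11.4% for MS_E against CIA_B, 0.279% to 2.82% for PLA_E, 0.281% to 3.34% for MS_A and 2.54% to 13.6% for PLA_A, 1.13% to 6.2% for the 4 groups after therapy, 1.98% to 10.6% for MS_E against PLA_E, 0.279% to 3.9% for MS_A against PLA_A, 1.67% to 7.14% for MS against PLA and 0.85% to 4.86% for the interaction. Without CIA_B replicate 2 each of PLA_E, MS_A, PLA_A and the 4 groups after therapy had 1 member called higher than CIA_B, without MS_E replicate 1 MS_E against PLA_E had 1 called lower, and without MS_A replicate 2 MS_A against PLA_A had 1 called lower. For MS_E against CIA_B, with 1 call, library size alone and no filter gave 0, the replicate block 2, the library split term 3 and only the libraries compared 2, neither of them miR-495, and the 1 call by DESeq2 was miR-494-3p. For PLA_E, with 1, limma-voom gave 2, 1 of them higher, library size alone 0, the replicate block 0, the split term 2 and only the libraries compared 0. For MS_A, with 1, DESeq2 gave 2, the split term 2 and only the libraries compared 5, 1 of them higher. For PLA_A, with 7, the size factors of DESeq2 gave 11, library size alone 3 and the split term 16. For MS_E against PLA_E, with 2, both higher, these size factors, the replicate block and only the libraries compared gave 1 each, higher, and no filter 0. Library size alone gave 1, miR-540-3p, lower in MS_E, while limma-voom gave 1 higher and 1 lower and the split term 3 higher and 1 lower, a total of 4, the lower one again miR-540-3p in both. For MS_A against PLA_A, with 1, limma-voom, DESeq2, library size alone, the replicate block and only the libraries compared gave 0 and the split term 3. For the 4 groups after therapy, with 3, library size alone gave 1, the replicate block 1 and the split term 5. For MS against PLA, with 5, the size factors of DESeq2 gave 8, library size alone 1, lower, and the split term 9. For the interaction, with 0, no filter gave 1, miR-299b-5p. Nothing in the labels says that replicate numbers pair the libraries. The deviations of same-numbered libraries correlated between -0.55 and 0.60 over the tested miRNAs and between -0.76 and 0.77 over the members. Such correlations cannot show whether libraries are paired. The replicate block gave 8 calls at 34 days against 1 h and 7 for PLA_A. The split term sorts the libraries by miR-1-3p in these same counts and is no pairing given by the labels. Its counts are among those above. The median of the interaction turned to 0.22 without MS_E replicate 2 and to 0.04 without MS_A replicate 1, and single libraries left out gave -0.93 to 0.22. At 34 days against 1 h miR-136-5p turned to 0.29 and 0.12 without these 2 libraries, and miR-411-3p to 0.76 and 0.01 without them and to 0.19 without PLA_E replicate 1. Over all libraries left out they ranged from -0.57 and -1.503 upwards. Of the 29 calls 1 was kept in all its alternatives, and the calls kept least often were miR-495 for MS_A against PLA_A (3 of 13), miR-376c-3p for MS_E against PLA_E (5 of 13), miR-299a-3p and miR-539-3p for the 4 groups after therapy (8 of 18 each), and miR-495 for MS_E and miR-541-5p for PLA_A against CIA_B (6 of 13 each). Of 43 log2 fold changes of named members and comparisons, the alternatives kept direction and call in 503 cases, lost the call in 146, gained it in 22 and turned the direction in these 5. With groups at or under 3 reads a library set at their floor, which concerned 0 to 3 members a comparison, the median of the members was -0.75 at 34 days against 1 h, as before, -1.04 for PLA_A beside -1.03, and 0.53 for MS against PLA beside 0.55. Causes of these differences were not tested.

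With 2 libraries a group the spread is poorly known. The median difference between the 2 libraries of a group was 0.72 on the log2 scale for tested members and 0.66 for all tested miRNAs. CIA_B replicate 1 has the fewest reads, and 10 of the 14 members called anywhere were at 17.1 CPM or less in every library.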
